A study of Mus musculus with 12 samples.

Results

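A set of 10 myeloid surface receptor genes is described across 12 RNA-seq libraries of cells sorted from mouse brain: Trem1, Trem3, Clec4d, Clec4e, Clec4n, Clec5a, Fpr1, Fpr2, Cd300lf and Jaml. The rows were taken by gene symbol, 10 of the 36491 genes in the count table, and all 10 were counted in every library. They had been picked because of how they moved with LPS and with head shielding in these same libraries. Their values in those comparisons are therefore given as a description, with no p-value. The mice were wild-type C57BL/6J males, 6 months old, and all had received a bone marrow transplant. The transplant was done without a head shield in the unshielded groups and with one in the shielded groups. Microglia were then depleted in every mouse with PLX5622 (a CSF1 receptor inhibitor) in the food for 2 weeks, and standard chow was fed for the next 6 weeks. The 4 groups of 3 libraries were unshielded mice given 50 µg of LPS (lipopolysaccharide from the bacterial cell wall) intraperitoneally, unshielded mice without LPS (saline), shielded mice with LPS, and shielded mice without LPS. Cells were collected 6 hours after injection on CD11b magnetic beads, which hold microglia together with other CD11b-bearing myeloid cells, and their RNA was linearly amplified. Shielded libraries 2 and 3 without LPS carry that group in their titles, whereas their treatment field names LPS. They were grouped by title. Some of the results that rest on them are also given without them, which leaves a single library in that group.

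Library totals were 56776710 to 60495968 counts in the unshielded LPS group and 18090977 to 40792878 in its no-LPS group. The shielded groups had totals of 29794946 to 40730784 with LPS and 28770354 to 42931839 without. Microglial markers were detected in every library: the 10 summed to between 8040 and 9660 CPM (counts scaled to library size with TMM factors) in unshielded LPS libraries and 10700 to 14200 without LPS. In shielded libraries the sums were 16200 to 17500 CPM with LPS and 22500 to 27100 without. Against shielded mice, 8 of 10 microglial markers fell and 4 of 6 border macrophage markers rose in unshielded mice, both with and without LPS. Markers of B and T cells summed to at most 3.01 CPM in any library. In bulk samples, fewer cells of a type and less RNA per cell cannot be told apart. Nothing in the labels says that the libraries of a group come from separate animals, so the spread between them may be technical.

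The receptors fall into families with known partners. Trem1, Trem3 and Clec5a have short tails and signal through the adaptor Tyrobp (DAP12). The C-type lectins Clec4d, Clec4e (Mincle) and Clec4n (Dectin-2), which bind microbial glycolipids and sugars, signal through the Fc receptor gamma chain, encoded by Fcer1g. Both adaptors recruit the kinase Syk, and Card9 carries the lectin signal to NF-kB. Fpr1 and Fpr2 are G-protein-coupled receptors for formylated peptides released by bacteria and damaged mitochondria, and they guide phagocytes. Cd300lf is a lipid-binding receptor with inhibitory tail motifs, and Jaml is an adhesion molecule of leukocytes that binds Cxadr on epithelial and endothelial cells, so these 2 are not triggering receptors in the strict sense.

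RefSeq start-site windows (250 bases before to 50 after the start, build GRCm38.p6) were matched by symbol for 8 of the 10 genes. The windows of 5 genes are printed here because these genes span the patterns described later: high with LPS in both arms, high in unshielded mice, and highest in shielded mice. Capitals mark matches, on either strand, to 1 of 5 motifs: the NF-kB motif and the interferon-response element (ISRE), known by name, TGANTCA for AP-1, TTGCNNAA for C/EBP and GAGGAA for PU.1. The windows lie at chr17:48232489-48232788, plus strand (Trem1), chr6:123261857-123262156, plus strand (Clec4d), chr6:123289822-123290121, minus strand (Clec4e), chr6:40585756-40586055, minus strand (Clec5a) and chr9:45078933-45079232, plus strand (Jaml).
Trem1: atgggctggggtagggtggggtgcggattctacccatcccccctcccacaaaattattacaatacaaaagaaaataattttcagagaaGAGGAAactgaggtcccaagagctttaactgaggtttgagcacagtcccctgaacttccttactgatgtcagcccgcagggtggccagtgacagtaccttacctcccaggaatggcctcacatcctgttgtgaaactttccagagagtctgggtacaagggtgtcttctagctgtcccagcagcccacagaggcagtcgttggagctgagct
Clec4d: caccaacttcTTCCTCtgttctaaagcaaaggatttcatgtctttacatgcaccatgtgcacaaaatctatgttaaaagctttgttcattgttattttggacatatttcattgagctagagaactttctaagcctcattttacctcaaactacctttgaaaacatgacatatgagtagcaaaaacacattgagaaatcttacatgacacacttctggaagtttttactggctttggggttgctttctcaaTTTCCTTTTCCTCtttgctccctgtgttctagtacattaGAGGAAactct
Clec4e: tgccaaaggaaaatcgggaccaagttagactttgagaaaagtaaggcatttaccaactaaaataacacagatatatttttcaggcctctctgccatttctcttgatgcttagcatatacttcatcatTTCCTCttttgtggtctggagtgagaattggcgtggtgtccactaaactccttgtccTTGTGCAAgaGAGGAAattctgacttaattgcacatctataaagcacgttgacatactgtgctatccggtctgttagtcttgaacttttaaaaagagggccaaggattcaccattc
Clec5a: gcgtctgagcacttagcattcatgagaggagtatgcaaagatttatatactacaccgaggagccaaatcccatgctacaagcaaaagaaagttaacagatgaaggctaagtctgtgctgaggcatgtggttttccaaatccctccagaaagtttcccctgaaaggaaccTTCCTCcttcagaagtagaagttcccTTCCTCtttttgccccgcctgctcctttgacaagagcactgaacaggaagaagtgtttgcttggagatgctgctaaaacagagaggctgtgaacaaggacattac
Jaml: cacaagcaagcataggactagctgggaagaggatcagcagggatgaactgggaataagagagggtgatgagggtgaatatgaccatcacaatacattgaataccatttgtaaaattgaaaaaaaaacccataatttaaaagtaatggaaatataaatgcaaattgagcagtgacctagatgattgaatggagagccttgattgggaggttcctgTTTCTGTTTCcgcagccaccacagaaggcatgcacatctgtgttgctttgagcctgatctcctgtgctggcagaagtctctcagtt
The PU.1 letters occurred in 6 of the 8 windows, against 28.3% of all 32851 windows of this length. The ISRE letters occurred in 2 of 8, Clec4d and Jaml, against 3.44% of all windows. In Clec4d that match overlaps a PU.1 match. The C/EBP letters were found in 1 window, Clec4e, where 10.8% of all windows hold them. No window held the NF-kB or AP-1 letters, which occur in 4.51% and 7.81% of all windows. These are matches of letters, not binding sites, and a missing match says nothing about the factor.

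The effect of LPS on these genes was compared within unshielded mice and, separately, within shielded mice. Every receptor had a higher mean with LPS than without in both arms. The LPS libraries lay wholly above those without LPS for 10 of 10 genes in each arm, as they did for 29.6% of all genes tested in unshielded and 34.1% in shielded mice. The log2 fold changes (LPS over no LPS, ± the SE from the edgeR fit over all genes) ran from 0.34 to 6.20 in unshielded mice, with a median of 4.29, and from 1.06 to 5.55 in shielded mice, with a median of 4.17. The medians of all 18875 genes tested were -0.06 and -0.14. At an adjusted p under 0.05, 9 of 10 receptors were called higher in unshielded mice, all but Clec5a, where 24.3% of all genes were (43.1% in either direction). In shielded mice 10 of 10 were called higher, where 32.4% of all genes were (67.5% in either direction). Nothing is read from these counts, since the genes were chosen on these contrasts. Without the 2 libraries with conflicting labels the shielded log2 fold changes ran from 0.91 to 5.17. These 2 libraries were also placed in the shielded LPS group, as their treatment field has it. The values then ran from 0.56 to 4.48 in shielded and 0.32 to 6.20 in unshielded mice. Both settings leave a single library in the shielded group without LPS, so effect sizes are given and no call is read from them.

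**Figure D1:**
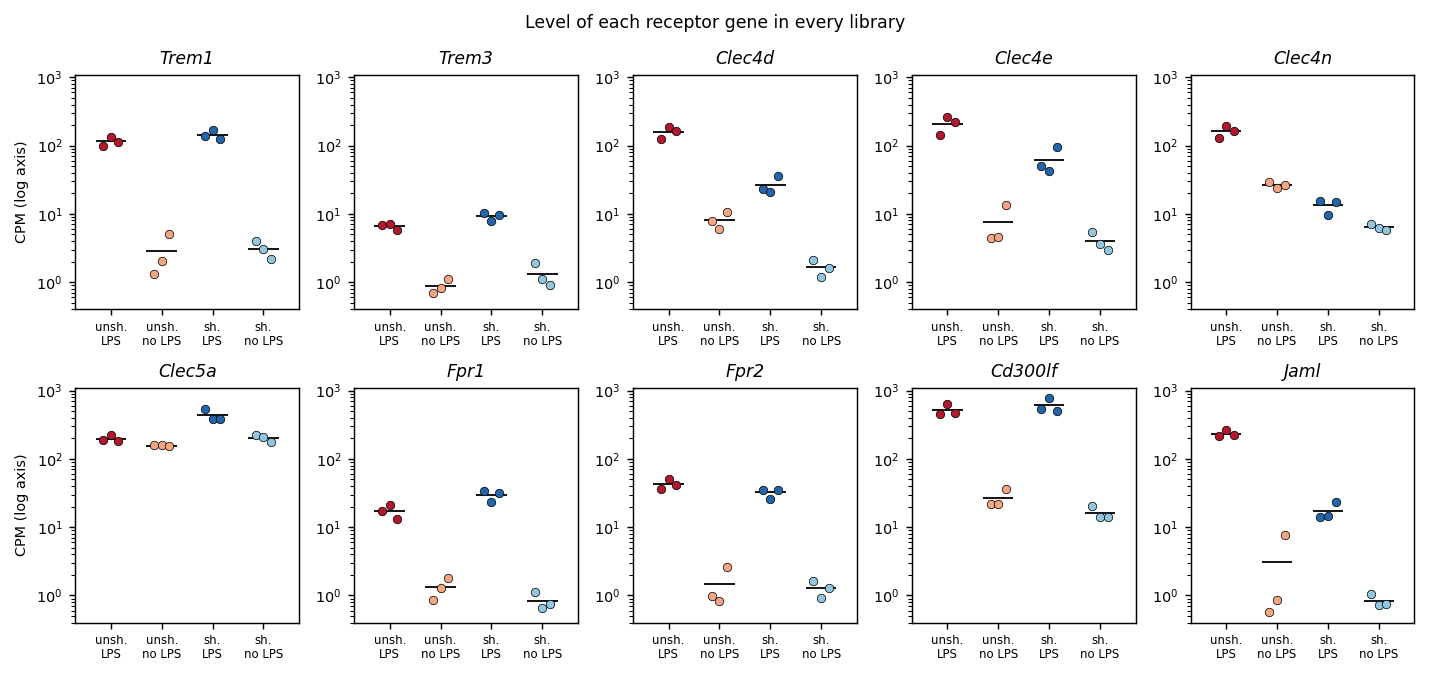
Level of each of the 10 receptor genes in every library, in CPM on a log axis, with unshielded (unsh.) LPS, unshielded no-LPS, shielded (sh.) LPS and shielded no-LPS libraries from left to right. Each point is 1 library and the bar is the group mean. For all 10 genes the LPS points lie above the no-LPS points of the same arm, while Clec5a starts from 152 CPM or more in every library without LPS.

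Trem1 amplifies Toll-like receptor signals in phagocytes and is the prototype of its family. It had 97.5, 135.5 and 114 CPM in the 3 unshielded LPS libraries, against 1.32, 2.07 and 5.13 CPM without LPS. In shielded mice it had 136, 169 and 126 CPM with LPS, against 3.99, 3.005 and 2.17 CPM without. The log2 fold change was 5.34 ± 0.41 in unshielded and 5.55 ± 0.41 in shielded mice, about 40.6-fold and 47-fold. The unshielded libraries overlapped the shielded ones both after LPS and without it. Unshielded library 3 without LPS was the highest of its group, and leaving it out moved the unshielded value to 6.13.

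Trem3, a mouse relative next to Trem1 on the chromosome, moved the same way by a smaller factor. The gene had 6.90, 7.19 and 5.82 CPM in unshielded LPS libraries, against 0.684, 0.819 and 1.09 CPM without LPS. The shielded libraries had 10.3, 7.79 and 9.48 CPM with LPS, against 1.88, 1.10 and 0.910 CPM without. The log2 fold changes were 2.94 ± 0.28 and 2.82 ± 0.27 in unshielded and shielded mice in that order. On a per-length scale (CPM per kb of exons) the ratio of Trem1 to Trem3 was 4.69, 6.25 and 6.52 in unshielded LPS libraries, against 0.641, 0.839 and 1.55 without LPS. In shielded libraries it was 4.38, 7.18 and 4.41 with LPS, against 0.706, 0.908 and 0.790 without. Trem1 thus stood at 4.38 or more times the level of Trem3 in every LPS library, and at 1.55 times or less in the others. Some of these values rest on few reads, since Trem3 had 17 counts in unshielded library 2 without LPS.

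Clec5a (MDL-1), the third receptor that pairs with Tyrobp, was already high without LPS. It had 187, 226 and 183 CPM in unshielded LPS libraries, against 157.5, 159 and 152 CPM without LPS. In shielded mice it had 543, 387.5 and 379 CPM with LPS, against 220.3, 209.7 and 179.5 CPM without. Its log2 fold change with LPS was 0.34 ± 0.14 in unshielded mice and 1.10 ± 0.14 in shielded mice, the smallest of the 10 in unshielded mice and within its SE of the smallest, Clec4n, in shielded mice. The 3 shielded LPS libraries were the highest of all 12. In both shield comparisons the unshielded libraries lay wholly below the shielded ones, by -0.38 ± 0.14 without LPS and -1.14 ± 0.14 after LPS on the log2 scale. With library totals in place of TMM scaling, the unshielded LPS value was 0.04.

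The 3 lectins that sit side by side on chromosome 6 were all high with LPS in unshielded mice. Clec4d (MCL), which helps bring Clec4e to the cell surface, had 127, 185 and 165 CPM in unshielded LPS libraries, against 7.93, 5.97 and 10.5 CPM without LPS. In shielded mice it had 23.2, 21.2 and 35.6 CPM with LPS, against 2.13, 1.20 and 1.60 CPM without. The log2 fold changes with LPS were close, 4.27 ± 0.27 in unshielded and 3.99 ± 0.29 in shielded mice. The levels were not: unshielded over shielded gave 2.29 ± 0.30 without LPS and 2.57 ± 0.25 after LPS, with no overlap between libraries in either. Without the 2 libraries with conflicting labels the value without LPS was 1.93.

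Clec4e, the receptor for mycobacterial cord factor, had 142, 261 and 220 CPM in unshielded LPS libraries, against 4.49, 4.57 and 13.4 CPM without LPS. Shielded libraries had 49.5, 42.7 and 93.9 CPM with LPS, against 5.34, 3.65 and 2.99 CPM without. The log2 fold change with LPS was 4.78 ± 0.50 in unshielded and 3.95 ± 0.49 in shielded mice. Without LPS the unshielded and shielded libraries overlapped (0.91 ± 0.49), and after LPS they did not (1.74 ± 0.43). Unshielded library 3 without LPS was again the highest of its group. Leaving it out moved the unshielded LPS value to 5.49 and the shield value without LPS to 0.17. Without the libraries with conflicting labels the shield value without LPS was 0.49.

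Clec4n, which binds fungal mannans, showed, with Jaml, the widest gap between the arms after LPS. It had 131, 191 and 165.5 CPM in unshielded LPS libraries, against 28.9, 23.6 and 26.3 CPM without LPS. In shielded mice it had 15.4, 9.497 and 15.1 CPM with LPS, against 7.16, 6.24 and 5.89 CPM without. Even the unshielded libraries without LPS lay above every shielded LPS library. The log2 fold change with LPS was 2.63 ± 0.18 in unshielded and 1.06 ± 0.19 in shielded mice, a difference of 1.57 ± 0.26. Unshielded over shielded was 2.03 ± 0.19 without LPS and 3.60 ± 0.19 after LPS. Without the libraries with conflicting labels the shielded LPS value was 0.91 and the shield value without LPS 1.87.

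The 2 formyl peptide receptor genes were at 2.62 CPM or less in every library without LPS. Fpr1 had 17.1, 21.1 and 13.2 CPM in unshielded LPS libraries, against 0.867, 1.30 and 1.79 CPM without LPS. Shielded libraries had 34.2, 23.4 and 31.4 CPM with LPS, against 1.12, 0.646 and 0.737 CPM without. Its log2 fold change with LPS was 3.71 ± 0.29 in unshielded and 5.13 ± 0.30 in shielded mice. The unshielded LPS libraries lay wholly below the shielded LPS ones (-0.80 ± 0.24), while without LPS the arms overlapped (0.62 ± 0.32). The difference of the LPS effects was -1.42 ± 0.40 and was -1.02 without the libraries with conflicting labels. Without them the shield value without LPS was 0.21.

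Fpr2, which also binds serum amyloid A, annexin A1 and cathelicidin peptides, had 36.7, 50.0 and 41.2 CPM in unshielded LPS libraries, against 0.981, 0.819 and 2.62 CPM without LPS. Shielded libraries had 35.4, 26.2 and 35.0 CPM with LPS, against 1.64, 0.905 and 1.28 CPM without. The log2 fold changes with LPS were 4.82 ± 0.36 and 4.63 ± 0.36 in unshielded and shielded mice. Without unshielded library 3 of the no-LPS group, the unshielded value was 5.50. Per length, the ratio of Fpr2 to Fpr1 was 2.19, 2.42 and 3.18 in unshielded LPS libraries, against 1.06, 1.14 and 1.14 in shielded LPS libraries. Without LPS it was 1.16, 0.643 and 1.50 in unshielded and 1.49, 1.43 and 1.77 in shielded libraries. The arms separated in this ratio after LPS and overlapped without LPS. The split of reads between such close copies is uncertain: 31.51% of the 50-base stretches in Fpr2 transcripts also occur in Fpr1, Fpr3 or a predicted gene, and Fpr2 shares 48 bases of exon with Fpr3.

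Cd300lf, which binds ceramide and phosphatidylserine and is the entry receptor of murine norovirus, moved strongly in both arms. It had 461.5, 648 and 464 CPM in unshielded LPS libraries, against 21.9, 21.6 and 35.8 CPM without LPS. Shielded libraries had 544, 778 and 501 CPM with LPS, against 20.3, 14.1 and 14.0 CPM without. The log2 fold change was 4.31 ± 0.27 in unshielded and 5.23 ± 0.29 in shielded mice. After LPS the arms overlapped (-0.21 ± 0.24), and without LPS the unshielded libraries lay above the shielded ones (0.71 ± 0.25). Without the libraries with conflicting labels the latter value was 0.38.

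Jaml differed between the arms after LPS by about as much as Clec4n, the 2 values lying within their SE. It had 213, 261 and 224 CPM in unshielded LPS libraries, against 0.570, 0.867 and 7.78 CPM without LPS. Shielded libraries had 14.1, 14.5 and 23.2 CPM with LPS, against 1.06, 0.711 and 0.737 CPM without. The lowest unshielded LPS library was several times the highest shielded LPS library. The log2 fold change with LPS was 6.20 ± 0.71 in unshielded and 4.35 ± 0.75 in shielded mice, and unshielded over shielded after LPS was 3.75 ± 0.62. A single library decides much of the LPS value. Without unshielded library 3 of the no-LPS group the unshielded LPS value was 8.39. The difference of the LPS effects was 1.86 ± 1.03 with that library and 4.03 without it, and the shield value without LPS was 1.90 ± 0.82 with it and -0.32 without it. Jaml also shares 397 bases of exon with a noncoding gene on the opposite strand, Gm10684, and the strand setting of the counting is not known.

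**Figure D2:**
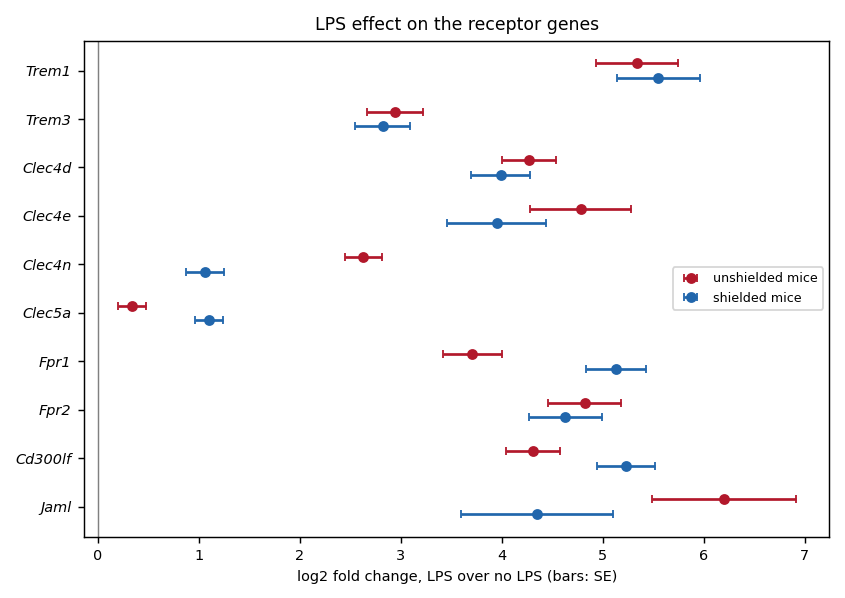
Log2 fold change with LPS over no LPS for each receptor gene, in unshielded and in shielded mice, with bars for the SE and a line at 0. For Trem1, Trem3, Clec4d and Fpr2 the arms differ by 0.28 or less, Clec4n is higher in unshielded mice (2.63 against 1.06) and Fpr1 and Clec5a are higher in shielded mice.

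The shield comparisons set unshielded over shielded mice at the same treatment. Without LPS, 4 of 10 genes had libraries that did not overlap between the arms, where 33.6% of all genes tested did not: Clec4d, Clec4n and Cd300lf were higher and Clec5a lower in unshielded mice. Of the 10, 2 were called higher, Clec4d and Clec4n, and none lower, where 3.98% of all genes tested were called higher and 10.8% in either direction. The members' median log2 value was 0.67, against -0.00 for all genes. After LPS, 8 of 10 genes had libraries that did not overlap, against 49.5% of all genes, with 4 called higher (Clec4d, Clec4e, Clec4n and Jaml) and 2 lower (Clec5a and Fpr1). The shares of all genes called were 19.1% higher and 25.6% lower, 44.6% in all, and nothing is read from the members' counts. The median was 0.10, against 0.07 for all genes. Without shielded LPS library 1, or without unshielded LPS library 3, the Fpr1 value after LPS was no longer called, at -0.71 and -0.64. The difference of LPS effects was called higher for Clec4n and lower for Fpr1 and Clec5a, where 4.06% of all genes were called higher and 9.25% lower, 13.3% in all. The Fpr1 call on this difference was lost without shielded LPS library 1, unshielded LPS library 1 or 3, shielded library 2 or 3 without LPS, or unshielded library 2 or 3 without LPS. The Clec5a call was lost without unshielded LPS library 1 or 3, shielded library 3 without LPS or unshielded library 2 without LPS. The difference of LPS effects shares libraries with every other comparison, and each LPS comparison shares libraries with both shield comparisons.

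**Figure D3:**
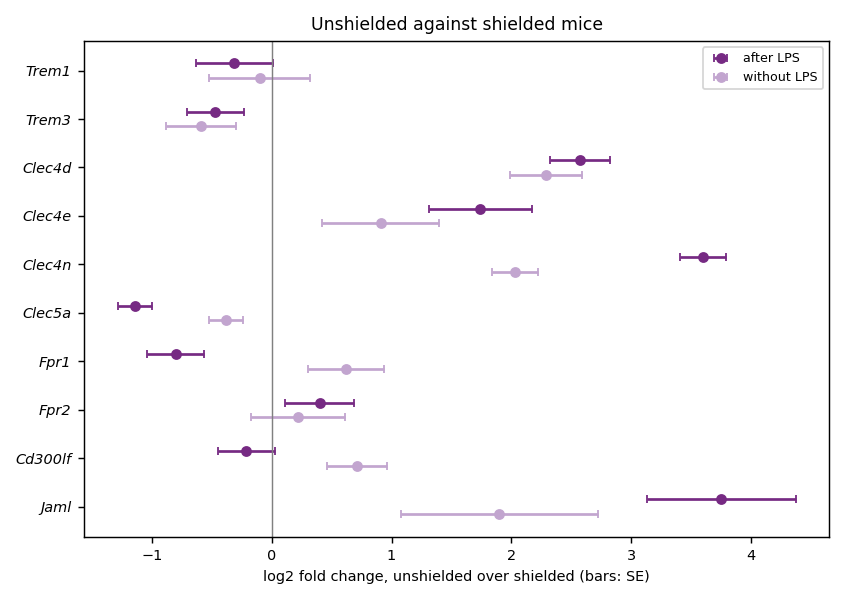
Log2 fold change of unshielded over shielded mice for each receptor gene, after LPS and without LPS, with bars for the SE and a line at 0. The 3 chromosome 6 lectins and Jaml lie to the right after LPS (1.74 to 3.75), Clec5a and Fpr1 lie to the left, and after LPS Trem1, Fpr2 and Cd300lf stay within 0.40 of 0.

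Markers of other myeloid cells also differed between the groups, though not always in the direction of the receptors. Border macrophage markers summed to 1860 to 2300 CPM in unshielded LPS libraries, against 164 to 281 CPM in shielded LPS libraries, and to 898 to 1120 CPM against 277 to 375 CPM without LPS. Mrc1, Cd163, Ms4a7 and Pf4 were the 4 of 6 that rose in both shield comparisons, and Lyve1 and Cbr2 were not called in either. Mrc1 alone averaged 1870 CPM in unshielded LPS libraries, most of that sum. With LPS, 2 of the 6 rose and none fell in unshielded mice, while none rose and 4 fell in shielded mice. Whether this list separates border macrophages from other brain macrophages was not tested. Monocyte markers summed to 525 to 639 CPM in unshielded LPS libraries and 289 to 320 CPM without LPS, and to 242 to 405 CPM in shielded LPS libraries and 151 to 197 CPM without. Of 9 monocyte markers 7 rose and 1 fell with LPS in unshielded mice, and 5 rose and 2 fell in shielded mice. Against shielded mice, 2 of the 9 were higher and none lower in unshielded mice, both without and after LPS. Of all genes tested, 3.98% and 19.1% were higher in these comparisons. No marker of these 2 lists was at 0 in a library, and their part in the receptors' values was not tested.

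Neutrophils carry many of these receptors, so the neutrophil markers were read as well. Their sum was 288 to 1070 CPM in unshielded LPS libraries, against 64.1 to 173 CPM without LPS, and 321 to 543 CPM in shielded LPS libraries, against 183 to 411 CPM without. Of 12 markers, 6 rose with LPS in unshielded mice, while in shielded mice 2 rose and 1 fell. After LPS none of the 12 was called between the arms, and without LPS 2 were lower in unshielded mice. The surface marker Ly6g was low throughout, at 0.504 to 0.962 CPM in unshielded LPS libraries, 0.205 to 0.481 CPM in unshielded libraries without LPS, 0.452 to 1.02 CPM in shielded LPS libraries and 0.997 to 1.68 CPM in shielded libraries without LPS. Unshielded LPS library 1 had by far the highest neutrophil sum. None of the 10 receptors was highest in that library among the 3 of its group, and 7 of 10 were lowest in it. In unshielded mice without LPS, library 3 was highest in this sum (173 CPM) and for 8 of 10 receptors. Shielded LPS library 3 was highest of its group in the sum, and among the receptors only for Clec4d, Clec4e and Jaml. In shielded mice without LPS, library 1 was highest in this sum and for 10 of 10 receptors. Both libraries with conflicting labels therefore lay below the undisputed one for every receptor. The receptors share the same libraries, so their ranks are not separate observations, and the ranks of all genes were not counted. The part of neutrophils in the receptors' values was not tested.

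Both the total level of the receptor set and its make-up differed between the groups. Summed over the 10 genes per length, the levels were 488, 678 and 560 CPM per kb in unshielded LPS libraries, against 74.2, 70.4 and 83.1 without LPS. They were 396, 387 and 358 CPM per kb in shielded LPS libraries, against 74.4, 66.7 and 58.6 without. All LPS libraries lay above all libraries without LPS, and the unshielded LPS libraries above the shielded ones. Clec5a made up 8.99% of the summed group means in unshielded LPS mice, 53.7% without LPS, 29.9% in shielded LPS mice and 79.4% without. Clec4n made up 19.9%, 24.4%, 2.47% and 6.8% in the same groups, and Jaml 13%, 1.3%, 1.46% and 0.403%. In unshielded LPS mice the highest level per length was that of Clec4n (114 ± 21.1 CPM per kb, SD, n = 3), followed by Cd300lf (102 ± 20.8) and Clec4d (99.5 ± 18.4), and these 3 lay within their spread. In shielded LPS mice Cd300lf (118 ± 29.0) and Clec5a (114 ± 24.1) led and were likewise not separated. Trem1 came next there, at 48.0 ± 7.44 CPM per kb, and Jaml and Clec4n were at 5.55 ± 1.65 and 9.40 ± 2.35.

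**Figure D4:**
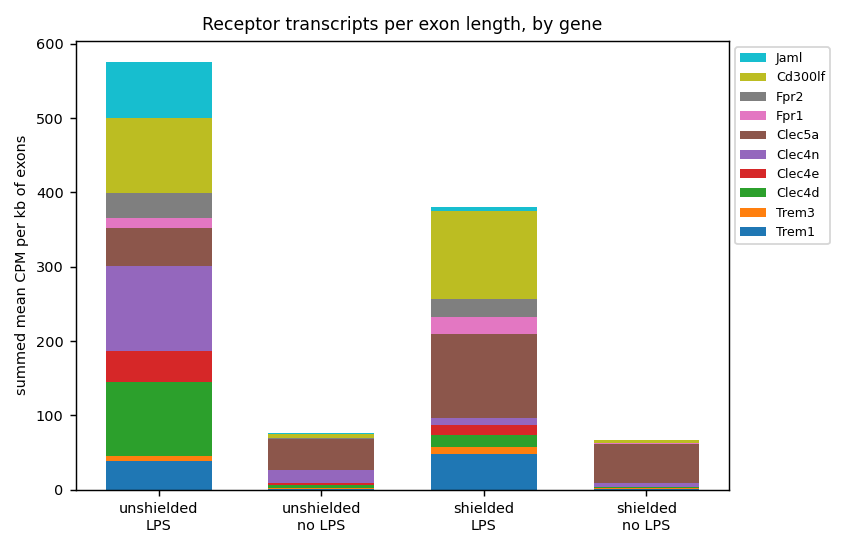
Stacked bars of the mean level per length (CPM per kb of exons) of the 10 receptor genes, summed within each group, with unshielded LPS, unshielded no-LPS, shielded LPS and shielded no-LPS from left to right. Without LPS the bars are low and Clec5a fills 53.7% and 79.4% of them, and after LPS Clec4n, Clec4d and Jaml take larger parts in unshielded than in shielded mice.

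Neighbouring lectins did not keep one ratio. Per length, Clec4d stood to Clec4n at 0.861, 0.860 and 0.885 in unshielded LPS libraries, against 0.244, 0.224 and 0.355 without LPS. In shielded libraries the ratio was 1.34, 1.98 and 2.09 with LPS, against 0.265, 0.170 and 0.242 without. It was above the no-LPS ratios in every LPS library and highest in the shielded ones. Clec4e stood to Clec4d at 0.360, 0.454 and 0.430 in unshielded LPS libraries and 0.686, 0.650 and 0.848 in shielded LPS libraries, with no overlap between the arms. Without LPS it was 0.182, 0.247 and 0.411 in unshielded and 0.807, 0.984 and 0.601 in shielded libraries.

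The order along the chromosomes (taken from the RefSeq gene order) set the receptors beside relatives that moved otherwise. On chromosome 6 the row runs Clec4a1, Clec4a3, Clec4b1, Clec4a2, Clec4b2, Clec4n, Clec4d and Clec4e. In unshielded mice the log2 fold changes with LPS were 2.63 for Clec4n, 4.27 ± 0.27 for Clec4d and 4.78 ± 0.50 for Clec4e. In shielded mice they were 1.06, 3.99 ± 0.29 and 3.95 ± 0.49. Clec4d and Clec4e overlapped in their SE ranges in both arms. Clec4a1, at the other end, rose by 2.29 ± 0.18 in unshielded and 2.37 ± 0.18 in shielded mice (adjusted p = 1.17e-06 and 3.08e-07). Between them Clec4a3 was at 0.24 and 0.17 and not called, and Clec4b1 had -2.85 and -2.69. On chromosome 17 Trem1 and Trem3 are followed by Treml4, Treml2, Trem2 and Treml1. Treml2 rose by 2.48 ± 0.17 and 2.20 ± 0.16 (adjusted p = 4.64e-07 and 2.57e-07). Trem2, the microglial lipid receptor, fell by 0.33 and 0.72 on the log2 scale (adjusted p = 0.011 and 2.08e-05); without a low-count filter the unshielded value was -0.28 and missed the threshold.

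**Figure D5:**
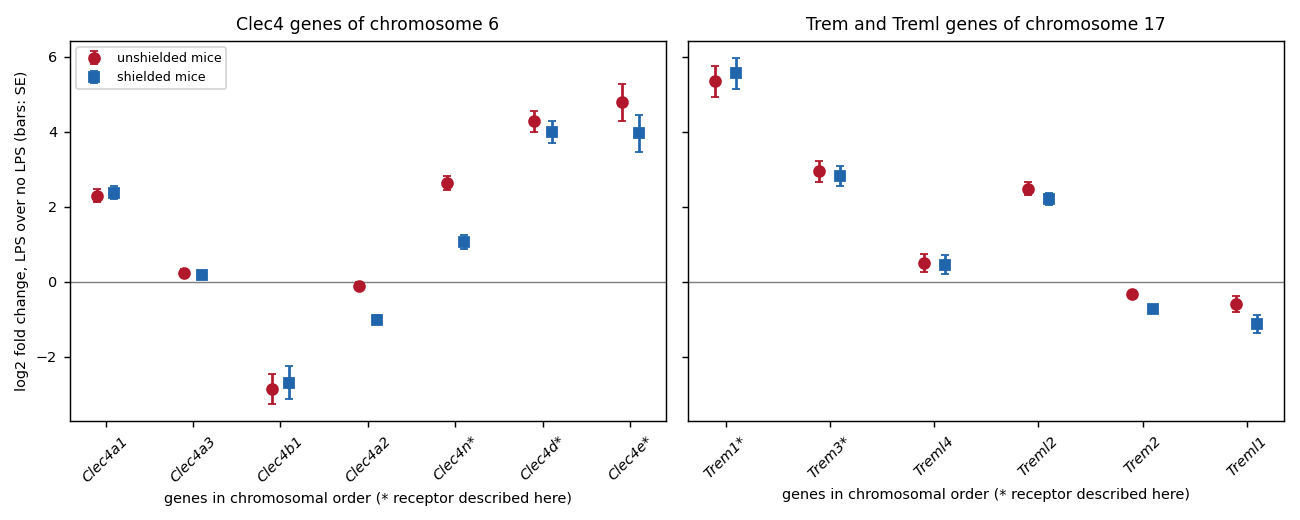
Log2 fold change with LPS over no LPS (bars: SE) for the genes of the chromosome 6 lectin row and the chromosome 17 Trem row in chromosomal order, with circles for unshielded and squares for shielded mice and asterisks for the receptors described here. Clec4b2 has no point because it was below the count filter. High values stand at both ends of the lectin row and at Trem1, Trem3 and Treml2, and values at or below 0.50 stand between or beside them.

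More relatives outside the 10 fell than rose with LPS. The 10 had been picked for how they moved with LPS, so nothing is read from that contrast. Of all genes tested, 24.3% rose and 18.8% fell in unshielded mice, and 32.4% rose and 35.1% fell in shielded mice. Of 11 other genes of the Trem and Cd300 families, 1 rose and 6 fell in unshielded mice and 2 rose and 7 fell in shielded mice. Cd300a, an inhibitory receptor, fell by 1.51 and 1.54 (adjusted p = 5.1e-07 and 1.33e-07). Of 10 other myeloid lectins tested, 2 rose and 6 fell in unshielded mice, and 2 rose and 7 fell in shielded mice. Clec7a, the beta-glucan receptor Dectin-1, fell by 1.86 in unshielded mice (adjusted p = 4.49e-06) and by 0.44 in shielded mice (adjusted p = 0.033). Clec1a fell by 1.58 and 3.41 (adjusted p = 0.000946 and 2.38e-06), from at most a few CPM. The other mouse formyl peptide receptor genes could not be compared: Fpr3, Fpr-rs3 and Fpr-rs4 had at most 4 counts in any library and did not pass the filter.

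The shared adaptors and kinases were measured in the same libraries. Fcer1g averaged 861 CPM in unshielded LPS libraries, against 413 without, and 903 CPM in shielded LPS libraries, against 462 without. It rose by 1.06 ± 0.11 and 0.97 ± 0.11 (adjusted p = 9.82e-06 and 7.93e-06). Tyrobp, the partner of Trem1, Trem3 and Clec5a, did not pass the test in either arm, at 0.18 ± 0.09 and 0.09 ± 0.09 (adjusted p = 0.139 and 0.389). Syk rose by 0.63 ± 0.12 and 0.75 ± 0.12 (adjusted p = 0.0012 and 0.000178). Card9 rose by 0.40 ± 0.11 and 0.62 ± 0.11 (adjusted p = 0.0109 and 0.000375), and its unshielded call was lost with library totals (0.10) and without any 1 of unshielded LPS library 1 and unshielded libraries 1, 2 and 3 without LPS. Of 14 adaptor and signalling genes, 8 rose and none fell in unshielded mice, and 9 rose and 1 fell in shielded mice. The 1 that fell was the adaptor Hcst (DAP10), by 0.46 (adjusted p = 0.018), and it missed the threshold without shielded LPS library 1 or 3 or shielded library 1 or 3 without LPS. The Src-family kinase Lyn had the smallest p of those that rose in each arm. Lyn rose by 1.23 ± 0.12 in unshielded mice (adjusted p = 6.28e-06) and by 1.61 ± 0.12 in shielded mice (adjusted p = 2.74e-07). After LPS, 6 of the 14 were lower and none higher in unshielded than in shielded mice, among them Lyn at a log2 fold change of -0.77 ± 0.12 (adjusted p = 0.000229).

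Of 4 listed phosphatase genes, 2 rose and 1 fell with LPS in each arm. Ptpn11 (SHP2) rose by 0.53 ± 0.08 and 0.80 ± 0.08 (adjusted p = 0.000179 and 3.09e-06). Ptpn6 (SHP1) fell by 0.57 and 0.38 (adjusted p = 0.00108 and 0.00872), and without shielded LPS library 2 the shielded value was -0.30 and missed the threshold. Of 8 genes that act downstream of the formyl peptide receptors, 4 rose and 1 fell in each arm. Pik3r5, a regulatory subunit of PI3K gamma, rose by 1.79 ± 0.24 in unshielded mice (adjusted p = 0.000107), and the G-protein subunit Gnai3 by 1.01 ± 0.09 in shielded mice (adjusted p = 1.06e-06). Phospholipase Plcb2 fell by 0.89 and 0.98 (adjusted p = 0.000504 and 0.000131).

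Several genes for ligands were measured in the same cells. Of 10, 6 rose and none fell with LPS in unshielded mice, and 5 rose and 1 fell in shielded mice. Saa1, a serum amyloid that binds Fpr2, rose in both arms and had at most 3 counts in any library without LPS. It averaged 1.93 CPM in unshielded LPS libraries and 2.40 CPM in shielded LPS libraries (adjusted p = 2.91e-05 and 5.32e-06). Saa3, another serum amyloid gene of the list, averaged 775 CPM in unshielded LPS libraries and 794 CPM in shielded LPS libraries. Its log2 fold changes with LPS were 6.19 ± 1.1 and 10.03 ± 1.36. Without LPS it had 0.707, 1.11 and 29.5 CPM in unshielded libraries and averaged 0.726 CPM in shielded ones. Hebp1, whose peptide binds formyl peptide receptors, rose by 0.48 ± 0.10 and 1.08 ± 0.10 (adjusted p = 0.00179 and 1.46e-06). Cxadr, the partner of Jaml, fell by 1.37 in shielded mice (adjusted p = 0.011) at a mean of 1.09 CPM with LPS, against 2.81 CPM without. That call was lost without shielded library 3 of the no-LPS group (-0.97). Without both libraries with conflicting labels the value was -1.26.

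Over the 57 listed relatives, adaptors and ligands that could be tested, 23 rose and 14 fell with LPS in unshielded mice, and 24 rose and 18 fell in shielded mice. The shares of all genes were 24.3% higher and 18.8% lower in unshielded mice, and 32.4% higher and 35.1% lower in shielded mice. With library totals in place of TMM scaling, which moved the median of all genes to -0.36 and -0.49, the splits were 16 against 24 and 20 against 25. Directions of small changes therefore depend on the scaling, whereas all 10 receptors stayed above 0. In the shield comparisons 4 rose and 7 fell without LPS, and 6 rose and 19 fell after LPS. Without LPS, Cd300ld (0.94 ± 0.21, adjusted p = 0.0101) and Clec2d (0.89 ± 0.15, adjusted p = 0.00183) were higher in unshielded mice, and Cd300c (-1.58 ± 0.27, adjusted p = 0.00249), Clec4a3 (-0.63 ± 0.11, adjusted p = 0.00281), Plcb2 (-0.66 ± 0.15, adjusted p = 0.0128) and Btk (-0.34 ± 0.09, adjusted p = 0.0378) lower. Without the 2 libraries with conflicting labels these values were 0.61 for Cd300ld, 0.81 for Clec2d and -1.48 for Cd300c. They were -0.6 for Clec4a3, -0.63 for Plcb2 and -0.35 for Btk. Cd300ld, Plcb2 and Btk missed the threshold without unshielded library 1 or shielded library 2 of the no-LPS groups, and Plcb2 and Btk without unshielded library 3. The Btk call was lost as well without shielded library 1 or unshielded library 2 of the no-LPS groups, and without LPS library 2 of either arm. After LPS, Clec4a2 was higher in unshielded mice (0.86 ± 0.11, adjusted p = 5.24e-05), and Gnai3 (-0.73 ± 0.09, adjusted p = 4.76e-05), Hebp1 (-0.89 ± 0.10, adjusted p = 2.51e-05) and Ptpn6 (-0.55 ± 0.11, adjusted p = 0.00137) lower.

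Genes with the most similar pattern were found by Pearson correlation of log2 CPM over the 12 libraries among 9234 named genes, as a description with no p. The points share the LPS contrast and, within a group, its treatment. The mean of the 10 receptors was most like Xaf1 and Oasl1 (r = 0.996 each), followed by Irf7, Ifitm3 and Rsad2 (0.995 each), all known as interferon-inducible. Trem1 was most like the chemokine gene Ccl5 (0.996), Trem3 like Isg15 (0.992), Fpr1 like Acod1 (0.992) and Fpr2 like Zbp1 (0.992). Clec4d was most like Ifi47 (0.991), Clec4e like Oas3 (0.988) and Cd300lf like Tgm1 (0.998). Of the remaining receptors, Clec4n was most like Tgfbi (0.989), Clec5a like Ubqln1 (0.992) and Jaml like Map3k6 (0.987). Among the receptors themselves, Clec4n correlated with the others at -0.262 to 0.872 and Clec5a at -0.262 to 0.736. The remaining 8 correlated with each other at 0.757 to 0.987 over 28 pairs.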

How the data were processed

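RNA-seq was measured in 12 libraries, 3 in each of 4 groups. The authors deposited 1 table of whole-number read counts per gene for 36491 Ensembl genes. The tools named are STAR, HTSeq and FastQC, with mouse build mm9, per the submitters' processing notes. Tool versions, the annotation and the strand setting are not given in the sources used. Per the labels, RNA was linearly amplified, so differences in amplification are part of the spread between libraries. Libraries were grouped by title.

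Counts were fitted in 1 model over all 12 libraries with edgeR 4.0.16 in R 4.3.3 (TMM scaling, robust quasi-likelihood test, two-sided, Benjamini-Hochberg adjustment over 18875 genes, threshold 0.05) after filterByExpr (minimum count 10, minimum total 15), and the fit was tested on simulated data. CPM values are TMM-scaled, log2 CPM used a prior count of 2, and the SE is the size of the log2 fold change over the root of F. Symbols came from a reference table of gene names. Exon lengths, overlaps and shared 50-base stretches came from GENCODE M21 on GRCm38, another build than mm9, so no mm9 coordinate is printed.

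The receptors and the lists of relatives were chosen with earlier results of these data known. Named context genes are, per list and comparison, the called gene with the smallest p in each direction, plus Tyrobp, Fcer1g, Syk, Card9 and Trem2. Some are left out for length, and 1 gene of the adaptor list is not reported here and is in no count of the lists. Clec1a and Clec2d, in the difference of LPS effects, Clec4b1 and Saa3 were named after their values were seen.

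Pairing was checked by the numbers in the titles. Deviations of same-numbered libraries from their group means correlated at 0.112, 0.194 and 0.547 between shielded LPS and shielded no-LPS libraries. Between unshielded LPS and shielded no-LPS libraries they correlated at -0.124, 0.327 and 0.407, and between the LPS groups of the arms at -0.264, 0.152 and 0.478. Values of this size therefore do not show pairing in the shielded arm. The main fit held the group only, and a replicate block was run as an alternative. In unshielded mice the deviations correlated at -0.115, -0.094 and 0.020 between LPS and no-LPS libraries. Within groups no 2 libraries were copies (chi-square per degree of freedom 11.2 to 42.3). Alternatives were library totals, DESeq2 1.42.0, no low-count filter, only the groups compared, replicate blocks, leaving out each library, and both other readings of the conflicting labels.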

Additional observations from a re-analysis of the deposited data

Results flagged for a closer look

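The difference of the LPS effects (unshielded minus shielded, log2) was tested for every gene, and 3 of the 10 receptors passed. Of all genes tested, 4.06% passed higher and 9.25% lower, 13.3% in all. The receptors were chosen on these contrasts, so this is a description and nothing is read from their count. The difference was 1.57 for Clec4n, -1.42 for Fpr1 and -0.76 for Clec5a. The Fpr1 and Clec5a calls were each lost without any 1 of several single libraries. Among the relatives and partners, the difference was 0.89 for Clec4a2 (edgeR adjusted p = 0.00336), -1.42 for Clec7a (adjusted p = 0.00328), -0.86 for Clec2d (adjusted p = 0.0167) and 1.83 for Clec1a (adjusted p = 0.0183). It was -0.57 for Gnai3 (adjusted p = 0.0121) and -0.59 for Hebp1 (adjusted p = 0.0156). Clec4a2 fell with LPS in shielded mice and did not pass the test in unshielded mice. Clec7a fell in both arms, and further in unshielded mice. Gnai3 and Hebp1 rose in both arms, and further in shielded mice. Without the 2 libraries with conflicting labels all 9 genes kept their sign, and no call is read from that setting. The values were 1.72 for Clec4n, -1.02 for Fpr1, -0.65 for Clec5a, 0.91 for Clec4a2 and -1.13 for Clec7a. They were -0.8 for Clec2d, 1.56 for Clec1a, -0.47 for Gnai3 and -0.52 for Hebp1.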

How the results depend on the processing

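Of 1929 values of receptors and named context genes under alternatives, 1763 kept their sign and their side of the threshold, 132 lost the call, 13 gained it and 21 changed sign, and of 192 counts 168 stayed within 1.5 times. Grouping the 2 conflicting libraries by their treatment field left 1, 0, 0, 3 and 0 receptors called (LPS unshielded, LPS shielded, shield without LPS, shield after LPS, difference of LPS effects; edgeR, where the 3 counts of 0 had 0, 1 and 1 at an unadjusted p under 0.05), and 1, 0, 0, 6 and 0 context genes (2, 1 and 3 for the counts of 0). Under that grouping Trem1 (0.36), Trem3 (0.12) and Cd300lf (0.45) changed sign after LPS, Fpr2 (-0.13) without LPS, and the differences of Trem1 (0.84), Cd300lf (0.07) and Clec1a (-0.87). Without both libraries, receptor values ran from -1.12 to 1.93 in the shield comparison without LPS and from -1.02 to 2.17 in the difference. Fpr2 without LPS (-0.13) and the Trem1 difference (0.17) changed sign there. The shielded LPS values of Ptpn6 and Hcst were -0.38 and -0.6 in that setting.

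The replicate block moved the count of context genes in the shield comparison without LPS from 11 to 20. Within the shielded arm the block left 10 of 10 receptors called, where 5811 of all genes rose and 5998 fell. It moved the context count from 42 to 44. It ended the Hcst call. The library numbers are not shown to pair in either arm. With the block Clec5a was also called higher with LPS in unshielded mice (0.34), and the Fpr1 difference was not called (-1.41). Library totals gave 10 context genes in the difference in place of 6. DESeq2 gave no adjusted p for Jaml and called 8, 9, 3, 5 and 4 of the other 9 receptors. The order is LPS unshielded, LPS shielded, shield without LPS, shield after LPS and difference of LPS effects. Of all genes it called 4461 higher and 3669 lower, 6119 and 6256, 873 and 1318, 3709 and 4849, and 917 and 2141.

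Leaving out single libraries gave 9 to 10, 10 to 10, 2 to 3, 5 to 6 and 1 to 4 receptors, and 31 to 39, 39 to 44, 5 to 14, 21 to 35 and 6 to 14 context genes. In the same order, all genes called higher were 3381 to 4606, 5543 to 6523, 441 to 884, 2134 to 5231 and 413 to 2951. Those called lower were 2584 to 4836, 5137 to 7174, 614 to 1488, 3985 to 5870 and 1142 to 3440. The context count was 5 without shielded library 2 and 6 without unshielded library 3 of the no-LPS groups (shield without LPS). It was 14 without shielded LPS library 3 (difference). Signs changed for uncalled values: without LPS, Trem1 (-0.92 to 0.30), Fpr2 (-0.50 to 0.50) and Jaml (-0.32 to 2.45), and in the difference Trem1 (-0.66 to 0.56), Trem3 (-0.30 to 0.30) and Fpr2 (-0.14 to 0.86). The Jaml difference was called only without unshielded library 3 of the no-LPS group, and its shield value without LPS only without unshielded library 1 of that group (2.45). Causes were not tested. The lowest receptor counts, 17 and 18 in the shallowest library, limit Fpr2, Trem3 and Jaml without LPS.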
